A study of Mus musculus with 8 samples.

Results

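Tumour necrosis factor (TNF) signalling in these data was followed through 10 genes, out of 53735 listed: the ligand Tnf, its sheddase Adam17, both receptors (Tnfrsf1a and Tnfrsf1b), the adaptors Tradd, Traf1, Traf2 and Traf3, the kinase Ripk1 and the ubiquitin ligase Birc3. They were chosen by gene symbol, with earlier results of these data known, and all 10 passed the filter on low counts. The cells were bone marrow derived macrophages (BMDMs), grown from bone marrow in culture for 7 days. The marrow came from 6-month-old male mice that had been infused with angiotensin II (Ang II), a peptide hormone that raises blood pressure, at 1.44 mg/kg/day from implanted minipumps for 7 days. WT mice were Mkl1+/+, Apoe-/- and KO mice were Mkl1-/-, Apoe-/-. Both genotypes therefore lacked Apoe, which encodes an apolipoprotein needed to clear lipoprotein remnants, both had received Ang II, and Mkl1 was deleted globally. There were 4 WT and 4 KO libraries, from 2 experiments with 2 libraries of each genotype: WT 1, WT 2, KO 5 and KO 6 in experiment 1, and WT 3, WT 4, KO 7 and KO 8 in experiment 2. No cells from mice without Ang II were analysed here. The sources do not say that each library came from its own mouse, so p-values measure the spread between these libraries, which may in part be technical.

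TNF is made by macrophages as a membrane protein, and the protease ADAM17 cuts it free. The receptor TNFR1 (Tnfrsf1a) recruits TRADD, RIPK1, TRAF2 and the BIRC proteins into a complex that activates NF-κB and MAP kinases. A death-inducing complex can form from it. In contrast, TNFR2 (Tnfrsf1b) has no death domain and binds TRAF2 directly. TRAF3, together with TRAF2 and the BIRC proteins, holds the non-canonical NF-κB pathway in check, and Tnf, Traf1 and Birc3 are themselves known NF-κB targets.

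Each library held between 33977799 and 41584540 counts, and levels are given in CPM, counts scaled by the TMM-adjusted library size. KO was compared with WT within each experiment and over both, with the quasi-likelihood test of edgeR (p adjusted by Benjamini-Hochberg over 15618 tested genes), and a gene passed at an adjusted p under 0.05. Libraries of a pair differed by more than counting noise, and more so in experiment 2. The chi-square per gene was 14.6 for the WT pair and 11.6 for the KO pair in experiment 1. In experiment 2 it was 61.3 and 74.4. The standard deviation of the log2 difference was 0.40 and 0.39 in experiment 1, and 0.54 in both pairs of experiment 2. The part of this in the number of calls was not tested. All 10 macrophage markers were tested, and their summed level was 17078 to 37697 CPM in WT and 19665 to 27252 CPM in KO. This sum gives most weight to the most abundant of them, which reached 973606 counts in a library, and says little about the rest. Of these markers 4 were lower and 5 higher in KO in experiment 1, and 2 were lower and 2 higher in experiment 2. The 3 that passed in both did so in opposite directions, with log2 fold changes of -2.13 and 0.91 for Adgre1, -1.05 and 1.34 for Itgam and 0.80 and -1.28 for Csf1r in experiments 1 and 2. Mertk, Cd14 and Ptprc had estimates of the same sign in both. Over both experiments none of the 10 passed as lower and 1 passed as higher, Mertk (log2 fold change 1.27, adjusted p = 0.0221 by edgeR). The part of the macrophage markers in the results was not tested. Among markers of other cells, 7 of 9 fibroblast genes were tested, and their sum was 176 CPM in KO 5 and 232 CPM in KO 6 against 2.19 to 12.1 CPM in the other 6 libraries. All 7 were higher in KO in experiment 1, with a median log2 fold change of 4.66 there and -0.28 in experiment 2. Of the neutrophil, dendritic cell, mast cell and basophil, and erythroid and platelet markers, 7 in all were tested, with sums no higher than 13.8 CPM in any library. Those of them that passed in a comparison of KO with WT are named here after their values were seen. Hdc, the histamine-forming enzyme of mast cells and basophils, had 7.83 and 2.34 CPM in WT 3 and 4 against 0.049 and 0.024 CPM in KO 7 and 8 (adjusted p = 0.0159 by edgeR in experiment 2). Mcpt8, a basophil protease, had 1.15 and 1.26 CPM in KO 5 and 6 and 0 counts in the other 6 libraries (adjusted p = 0.000107 by edgeR in experiment 1 and 0.0367 over both). S100a8, a neutrophil calcium-binding protein, had 1.33 and 0.999 CPM in WT 1 and 2 against 0.241 and 0.248 CPM in KO 5 and 6 (adjusted p = 0.000913 by edgeR in experiment 1). The part of these transcripts in the results was not tested. No T or B cell marker passed the filter on low counts, and their summed level was 0.024 to 0.16 CPM, with at most 3 counts of any of them in a library. The part of the fibroblast transcripts in the results of experiment 1 was not tested, and experiment 2 holds neither of these KO libraries. As in any bulk sample, fewer cells of a type and less RNA per cell cannot be told apart.

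Mkl1, the deleted gene, was measured first. It had 25.7, 27.1, 26.9 and 29.7 CPM in WT 1 to 4 and 19.3, 20.7, 14.6 and 10.5 CPM in KO 5 to 8. The highest KO library was below the lowest WT library, but no KO library was near 0. The log2 fold change was -0.41 (SE 0.08, adjusted p = 0.0028 by edgeR) in experiment 1 and -1.17 (SE 0.19, adjusted p = 0.0196) in experiment 2. Over both it was -0.78 (SE 0.19, adjusted p = 0.0534), and the experiments differed (log2 difference -0.77, adjusted p = 0.0245), a call that was lost without WT 1, WT 2, WT 4, KO 5 or KO 6 (adjusted p up to 0.086). In experiment 2 the Mkl1 call was lost in the edgeR fits without WT 3, WT 4 or KO 8 (adjusted p up to 0.0716). The exons removed in the KO are not given in the sources used here, so reads on remaining exons count as well.

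Of the 10 genes, 6 were lower in KO in experiment 1 and none was higher, where 27.4% of all tested genes were called lower and 26.8% higher. Because the 10 genes were chosen with earlier results of these data known, such counts describe them and do not test them against these shares. In experiment 2, 7 were lower and 1 higher, against 8.00% and 7.10% of all tested genes. When 1 library of experiment 2 was left out, 4 members were called lower without WT 3, 5 without WT 4, 4 without KO 7 and 3 without KO 8, and none was called higher. The share of all tested genes called lower was 2.29%, 4.76%, 3.25% and 0.922% in these fits. Over both experiments 5 were lower (Tnf, Tnfrsf1b, Adam17, Traf3 and Birc3) and none higher, against 3.26% and 3.59%. For 6 genes (the same 5 and Traf2) all 4 KO libraries lay below all 4 WT libraries, which held for 5.90% of tested genes. No member had all KO libraries above all WT libraries, where 6.15% of tested genes did. The median log2 fold change of the 10 genes was -0.55 in experiment 1, -0.87 in experiment 2 and -0.81 over both, beside 0.017, 0.0048 and 0.010 for all tested genes. With upper-quartile scaling the median of all genes in experiment 1 moved from 0.017 to 0.13. The share of calls that were higher then went from 49.4% to 61.1% there and from 52.4% to 65.0% over both. With this scaling the members called lower stayed at 6 and 5, and 1 member, Tradd, was called higher in experiment 1.

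**Figure D1:**
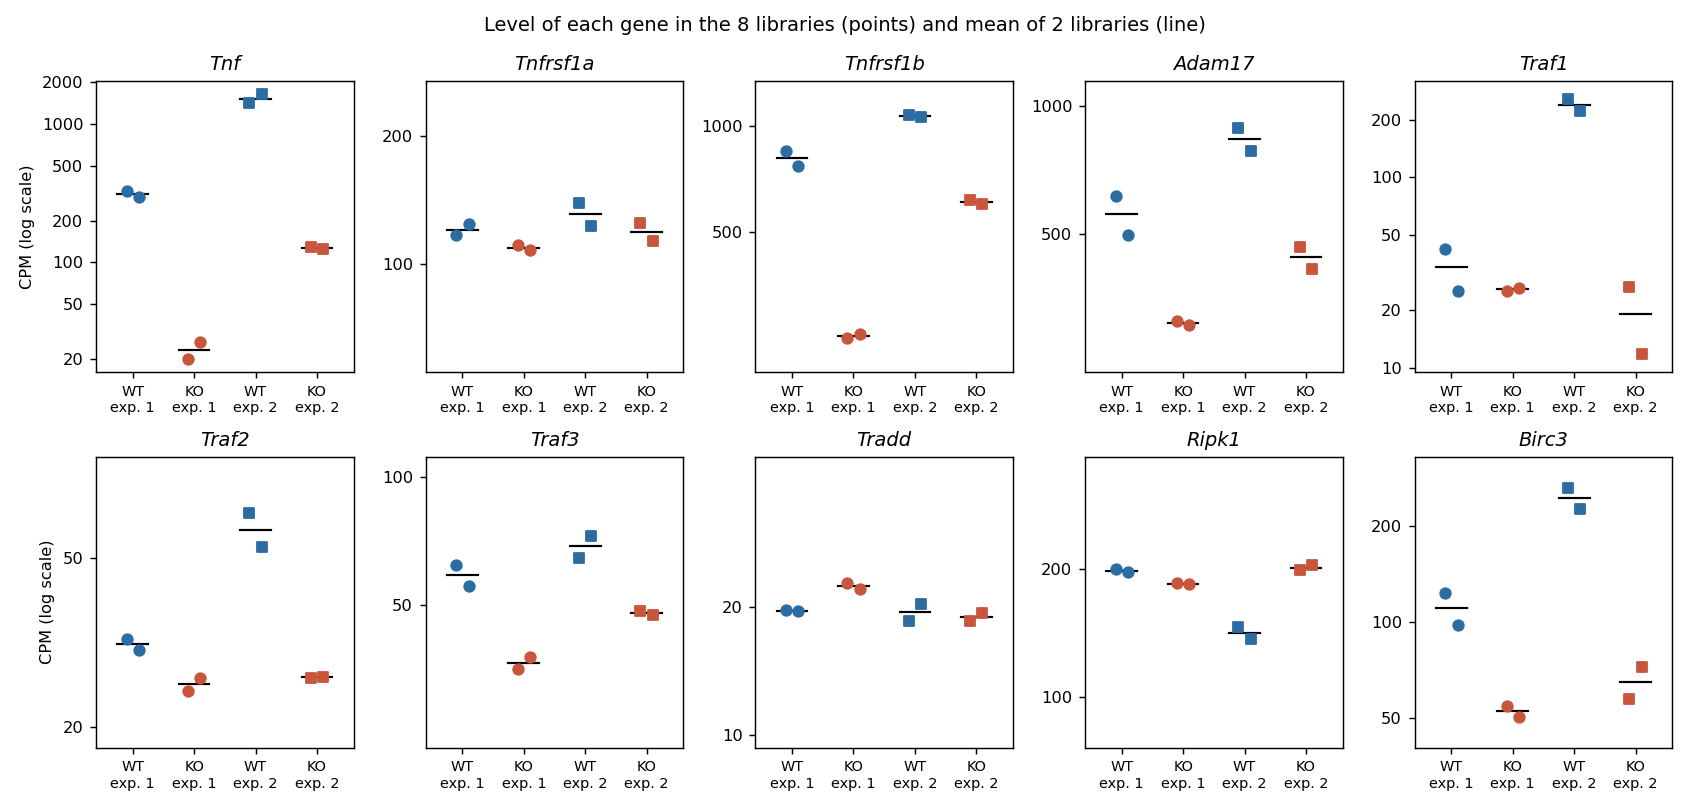
Level of the 10 genes in CPM (log scale) in each of the 8 libraries, WT in blue and KO in red, circles for experiment 1 and squares for experiment 2, with a line at the mean of the 2 libraries. Tnf shows a wide gap between the genotypes in both experiments, while Tnfrsf1a and Tradd lie close together and Traf1 is high in the 2 WT libraries of experiment 2 only.

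Of the 10 genes, the ligand had the largest fold change in experiment 1 and over both. Tnf (GRCm38 chr17:35199381-35202007, minus strand) had 326 and 295 CPM in WT 1 and 2, and 1414 and 1636 CPM in WT 3 and 4. In KO it had 20.1 and 26.5 CPM in libraries 5 and 6, and 128 and 124 CPM in libraries 7 and 8. The highest KO library therefore lay below the lowest WT library although the level in each genotype was several times higher in experiment 2. KO held 7.43% of the WT level in experiment 1 (log2 fold change -3.75, SE 0.15, adjusted p = 2.0e-05 by edgeR) and 8.28% in experiment 2 (-3.59, SE 0.17, adjusted p = 0.00216). Over both experiments the log2 fold change was -3.67 (SE 0.13, adjusted p = 0.000186). The experiments did not differ detectably in this effect, with a log2 difference of 0.14 and a 95% interval from -0.33 to 0.62 (adjusted p = 0.605). With any 1 library removed, the estimate over both stayed between -3.73 and -3.58 and passed in all 8.

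The RefSeq promoter table (GRCm38.p6, 250 bases before to 50 bases after each gene's start) had an entry for 9 of the 10 genes, with 2 starts for Ripk1. Both strands were searched for the kB site, the binding motif of NF-κB, for the CArG box, the motif of SRF, with which MKL1 acts, for TATAAA and for TGANTCA, an AP-1 motif. Tnf and Traf3 were the members with a match, 1 each, and their upstream 250 bases are printed because they show which motif each holds and where. The capitals mark TATAAA in Tnf, which begins 29 bases before the start, and a kB site in Traf3, which begins 10 bases before it. They lie at chr17:35202008-35202257 (minus strand) and chr12:111166120-111166369 (plus strand).
Tnf: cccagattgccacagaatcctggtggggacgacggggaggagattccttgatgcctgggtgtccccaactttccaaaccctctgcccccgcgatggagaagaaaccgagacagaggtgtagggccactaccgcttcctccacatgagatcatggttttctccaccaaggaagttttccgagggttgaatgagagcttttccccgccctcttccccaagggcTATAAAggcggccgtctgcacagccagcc
Traf3: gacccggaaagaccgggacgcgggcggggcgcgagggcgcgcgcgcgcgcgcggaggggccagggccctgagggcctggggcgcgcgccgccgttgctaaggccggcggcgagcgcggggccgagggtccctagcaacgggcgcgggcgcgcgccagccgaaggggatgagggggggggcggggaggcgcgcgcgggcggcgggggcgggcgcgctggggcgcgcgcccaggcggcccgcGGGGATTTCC
Among all 32851 promoters of the table, 4.51% held a kB site, 1.63% a CArG box, 13.6% TATAAA and 7.81% TGANTCA. A match is a string of letters and not a measured binding site, and the absence of one says only that these letters are not in this window.

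Adam17, which encodes the protease that sheds TNF and both TNF receptors, fell by a similar factor in both experiments. Its level (chr12:21323509-21373632, minus strand) was 616 and 499 CPM in WT 1 and 2, and 889 and 783 CPM in WT 3 and 4. KO 5 to 8 had 312, 305, 467 and 414 CPM. No KO library reached the lowest WT library. On the log2 scale the change was -0.87 (SE 0.10, adjusted p = 0.000369 by edgeR) in experiment 1, -0.93 (SE 0.15, adjusted p = 0.0204) in experiment 2 and -0.89 (SE 0.11, adjusted p = 0.00737) over both, which is 54.0% of the WT level. The difference between the experiments was -0.07 (95% interval -0.50 to 0.35, adjusted p = 0.776). In experiment 2 the call was lost in the edgeR fits without WT 3, KO 7 or KO 8 (adjusted p 0.0943, 0.0628 and 0.104). Adam17 shares 311 exon bases with Iah1 on the other strand, and whether the counting used strand is not given in the sources used here.

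Of the receptors, Tnfrsf1b fell in KO and Tnfrsf1a did not pass. Tnfrsf1b, which encodes TNFR2 (chr4:145213463-145246870, minus strand), had 850, 772, 1072 and 1063 CPM in WT 1 to 4. KO 5 and 6 had 251 and 257 CPM, and KO 7 and 8 had 617 and 602 CPM. All KO libraries lay below all WT libraries, with the wider gap in experiment 1. Tnfrsf1b had a log2 fold change of -1.69 (SE 0.07, adjusted p = 1.5e-06 by edgeR) in experiment 1, -0.81 (SE 0.14, adjusted p = 0.0214) in experiment 2 and -1.24 (SE 0.19, adjusted p = 0.0144) over both. The effect was smaller in experiment 2 by 0.86 on the log2 scale (95% interval 0.57 to 1.16, adjusted p = 0.00197 by edgeR). Leaving out any of the 4 libraries of experiment 2 raised its adjusted p there above the threshold (0.0754 to 0.102), and over both it was 0.0596 without KO 5 and 0.0536 without KO 6.

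Tnfrsf1a, which encodes the death domain receptor TNFR1 (chr6:125349362-125362484, plus strand), had 116, 124, 139 and 122 CPM in WT and 110, 107, 124 and 113 CPM in KO. The genotypes overlapped over the 8 libraries, while in experiment 1 both KO libraries lay below both WT libraries. Its log2 fold change was -0.16 (95% interval -0.29 to -0.020, adjusted p = 0.0535 by edgeR) in experiment 1, -0.14 (adjusted p = 0.493) in experiment 2 and -0.14 (95% interval -0.32 to 0.04, adjusted p = 0.304) over both. With no filter beyond 1 count in total it passed in experiment 1 (log2 fold change -0.17, adjusted p = 0.028).

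Per base of exon, Tnfrsf1b was at 4.95, 4.24, 5.23 and 5.89 times the level of Tnfrsf1a in WT 1 to 4. In KO 5 to 8 this ratio was 1.54, 1.63, 3.36 and 3.61. Each KO ratio lay below each WT ratio, with the lowest values in experiment 1. These ratios restate the levels of both receptors and were not tested separately.

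Among the adaptors, Tradd links the death domain of TNFR1 to RIPK1 and TRAF2, and it did not pass in any comparison. Tradd (chr8:105258286-105264609, minus strand) had 19.6, 19.5, 18.5 and 20.4 CPM in WT and 22.8, 22.1, 18.5 and 19.4 CPM in KO. KO 5 and 6 lay above all WT libraries, while KO 7 and 8 lay among them. Estimates on the log2 scale were 0.18 (adjusted p = 0.0863 by edgeR) in experiment 1, -0.04 (adjusted p = 0.867) in experiment 2 and 0.08 (95% interval -0.11 to 0.27, adjusted p = 0.604) over both. In experiment 1 it passed as higher with upper-quartile scaling (log2 fold change 0.29, adjusted p = 0.014) and with at least 10 counts in each library (0.21, adjusted p = 0.0475).

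Traf2, which encodes the ubiquitin ligase adaptor that brings the BIRC proteins to both receptors, was lower in KO in each experiment. Its level (chr2:25517982-25546940, minus strand) was 32.2 and 30.3 CPM in WT 1 and 2, and 63.6 and 52.9 CPM in WT 3 and 4. KO 5 to 8 had 24.3, 26.1, 26.1 and 26.2 CPM. The KO libraries hardly varied between experiments, whereas the WT libraries of experiment 2 lay well above those of experiment 1. Traf2 had a log2 fold change of -0.33 (SE 0.08, adjusted p = 0.00701 by edgeR) in experiment 1 and -1.16 (SE 0.13, adjusted p = 0.00945) in experiment 2, and these differed by -0.84 (95% interval -1.19 to -0.50, adjusted p = 0.00382). The fit over both experiments gave -0.74 (SE 0.18, adjusted p = 0.0583). It passed over both with DESeq2 (adjusted p = 0.00376) and as the mean of the effects of both experiments (adjusted p = 0.000546 by edgeR). Without WT 1 the adjusted p in experiment 1 was 0.055, and without KO 8 that in experiment 2 was 0.0626.

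Traf1 encodes a TRAF without a RING domain, which pairs with TRAF2, and it showed the greatest contrast between the experiments. Traf1 (chr2:34941750-34961772, minus strand) had 42.0 and 25.3 CPM in WT 1 and 2, and 25.4 and 26.4 CPM in KO 5 and 6. In experiment 2 it had 257 and 223 CPM in WT 3 and 4, and 26.5 and 11.9 CPM in KO 7 and 8. In experiment 1 the genotypes overlapped, and in experiment 2 they lay far apart. The log2 fold change was -0.40 (SE 0.29, adjusted p = 0.330 by edgeR) in experiment 1 and -3.64 (SE 0.42, adjusted p = 0.0135) in experiment 2. The difference of -3.27 on the log2 scale (95% interval -4.44 to -2.09) had an adjusted p of 0.0023, and it passed in each of the 8 fits that left out 1 library. Over both experiments the estimate was -2.01 (SE 0.77, adjusted p = 0.160), and it passed with DESeq2 (adjusted p = 0.00991) and as the mean of the effects of both experiments (adjusted p = 0.00144 by edgeR). Leaving out 1 library moved that estimate between -2.65 (without WT 2) and -1.33 (without KO 8), and it passed in none of these 8 edgeR fits. In experiment 2 the log2 fold change was between -4.33 (without KO 7) and -3.18 (without KO 8), and it passed in all 4 such fits. Without WT 2, the lower WT library of experiment 1, the log2 fold change in that experiment was -0.71 (adjusted p = 0.000539), and without WT 1 it was 0.020 (adjusted p = 0.895). With no filter beyond 1 count in total, the adjusted p in experiment 2 was 0.0884.

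Traf3, the adaptor that restrains the kinase NIK (Map3k14), fell by a modest factor. Its level (chr12:111166370-111267153, plus strand) was 62.0, 55.2, 64.5 and 72.8 CPM in WT and 35.3, 37.6, 48.3 and 47.4 CPM in KO. The genotypes did not overlap. It changed by -0.70 on the log2 scale (SE 0.08, adjusted p = 0.000128 by edgeR) in experiment 1, -0.52 (SE 0.11, adjusted p = 0.0360) in experiment 2 and -0.60 (SE 0.08, adjusted p = 0.010) over both, and the difference between experiments was 0.16 (95% interval -0.14 to 0.47, adjusted p = 0.358). Over both, it passed in each of the 8 fits without 1 library, while the call in experiment 2 was lost in each of the 4 (adjusted p 0.101 to 0.159).

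Ripk1 encodes the kinase that carries ubiquitin chains in the TNFR1 complex and can start cell death, and it was the member called higher in KO in an experiment. Ripk1 (chr13:34002363-34037147, plus strand) had 200.3 and 197 CPM in WT 1 and 2, and 146 and 137 CPM in WT 3 and 4. KO 5 to 8 had 186, 184, 199 and 205 CPM. KO lay slightly below WT in experiment 1 and above it in experiment 2, where the WT libraries were the low ones. On the log2 scale KO differed from WT by -0.12 (SE 0.06, adjusted p = 0.104 by edgeR) in experiment 1 and 0.51 (SE 0.12, adjusted p = 0.0402) in experiment 2, with a difference of 0.62 (95% interval 0.37 to 0.87, adjusted p = 0.0038). Over both it was 0.21 (SE 0.13, adjusted p = 0.390), and it passed as the mean of the effects of both experiments (0.21, adjusted p = 0.0237 by edgeR). The call in experiment 2 was lost without any of its 4 libraries (adjusted p 0.0921 to 0.166), and the difference between experiments passed in all 8 such fits. Ripk1 shares 241 exon bases with Serpinb6a on the other strand and 511 with the processed pseudogene Gm17084 on its own strand, so its counts are uncertain to that extent.

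Birc3 encodes cIAP2, which adds the ubiquitin chains that keep RIPK1 in its signalling form, and it was lower in KO in both experiments. Birc3 (chr9:7848699-7873186, minus strand) had 123 and 97.8 CPM in WT 1 and 2, and 264 and 226 CPM in WT 3 and 4. KO 5 to 8 had 54.7, 50.4, 57.4 and 72.0 CPM. The genotypes did not overlap, and WT varied more between experiments than KO did. Birc3 changed by a log2 fold of -1.09 (SE 0.12, adjusted p = 0.000638 by edgeR) in experiment 1, -1.92 (SE 0.17, adjusted p = 0.00519) in experiment 2 and -1.50 (SE 0.20, adjusted p = 0.0104) over both. The decrease was larger in experiment 2 by a log2 difference of -0.85 (95% interval -1.34 to -0.35, adjusted p = 0.0170), a call that was lost without WT 2 (adjusted p = 0.0633) or KO 5 (adjusted p = 0.0659).

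**Figure D2:**
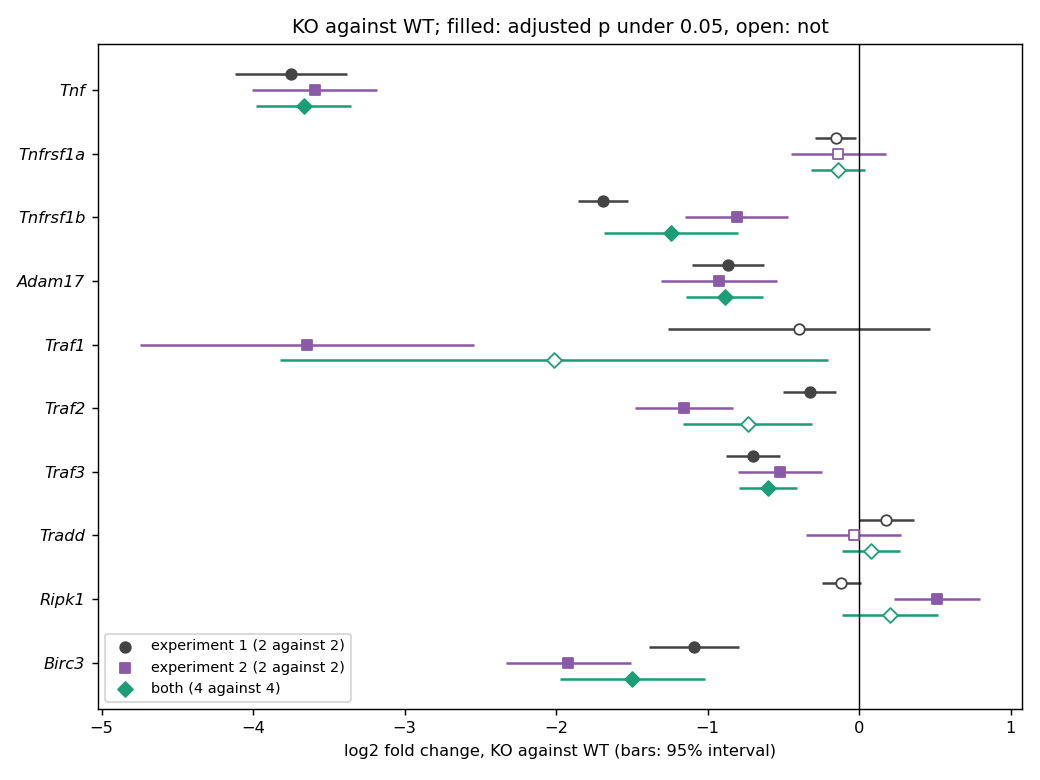
Log2 fold change of KO against WT for the 10 genes with its 95% interval, in experiment 1 (2 against 2 libraries), experiment 2 (2 against 2) and over both (4 against 4), filled where the adjusted p was under 0.05. Tnf, Adam17 and Traf3 have overlapping intervals in both experiments, while Traf1, Traf2 and Birc3 lie further to the left in experiment 2, Tnfrsf1b further to the left in experiment 1, and Ripk1 changes side.

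The difference between the experiments was tested for every gene, and 5 of the 10 passed (Tnfrsf1b, Traf1, Traf2, Ripk1 and Birc3), where 39.8% of all tested genes did. As a description without a test, Tnf was 4.91 times as high in the WT libraries of experiment 2 as in those of experiment 1, and 5.43 times as high in the KO libraries. In WT, Traf1 was 7.13 times, Birc3 2.21 times and Traf2 1.86 times as high in experiment 2. In KO the same ratios were 0.739 for Traf1, 1.23 for Birc3 and 1.04 for Traf2. Tnf was thus higher in experiment 2 in both genotypes, whereas Traf1 was higher there in WT but not in KO. For Tnfrsf1b it was KO that differed more, with a ratio of 2.40 in KO and 1.32 in WT. The labels name the experiments without saying how they differed.

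Levels of different genes were compared per kb of exon. In WT of experiment 1, Tnfrsf1b (223 and 202 CPM per kb) and Tnf (199 and 180 CPM per kb) led, followed by Adam17 (86.1 and 69.7) and Tnfrsf1a (45.0 and 47.7). In WT of experiment 2 Tnf came first at 863 and 998 CPM per kb, above Tnfrsf1b at 281 and 278. In KO of experiment 1 Tnf was in the fifth place, at 12.2 and 16.1 CPM per kb, below Ripk1 (22.2 and 22.1) and next to Tradd (12.2 and 11.8). In KO of experiment 2, at 78.3 and 75.8 CPM per kb, it stood below Tnfrsf1b (162 and 158) in the second place. The adaptors Traf2, Traf3 and Tradd lay between 4.76 and 12.5 CPM per kb in every library. Traf2 and Traf3 overlapped in KO of experiment 1, as Birc3 and Ripk1 did in WT of experiment 1. Traf1 was last in 3 of the 4 groups (1.35 to 4.76 CPM per kb), and in WT of experiment 2 it stood above Ripk1 at 29.1 and 25.2.

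**Figure D3:**
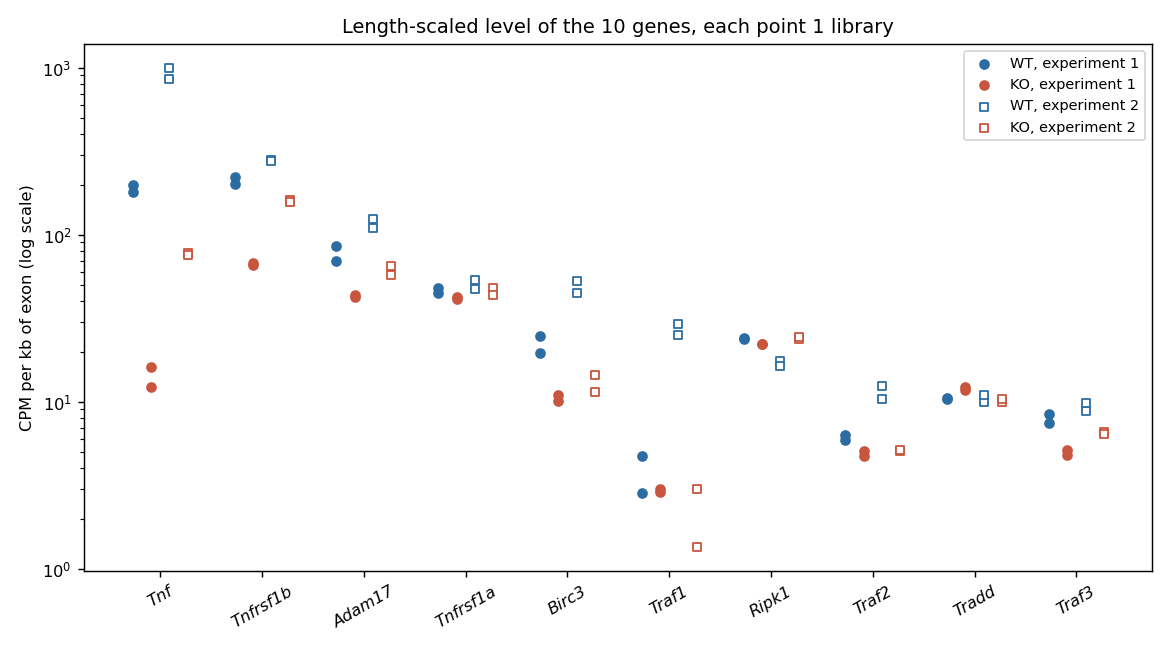
Level of the 10 genes in CPM per kb of exon (log scale), each point 1 library, WT in blue and KO in red, filled circles for experiment 1 and open squares for experiment 2. Tnf ranges from 12.2 CPM per kb in KO 5 to 998 in WT 4, whereas Tnfrsf1a stays between 41.4 and 53.7 in all 8 libraries.

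The genes whose log2 CPM, centred on the mean, was nearest to that of Tnf over the 8 libraries were Ptgs2 (root mean square difference 0.446), Mefv (0.521), Adora2a (0.530), Ppm1n (0.534) and Tarm1 (0.539). Ptgs2 encodes cyclooxygenase 2, Mefv pyrin and Adora2a an adenosine receptor. In WT 1 to 4 Ptgs2 had 84.8, 57.2, 176 and 171 CPM, and in KO 5 to 8 it had 3.03, 3.14, 19.5 and 12.0 CPM. It was low in KO and higher in experiment 2 in both genotypes, and its log2 fold change over both was -3.98. Mefv, at 24.3, 19.4, 54.3 and 65.9 CPM in WT and 1.90, 1.02, 7.33 and 3.93 CPM in KO, changed by -3.65 on the log2 scale over both. Adora2a, Ppm1n and Tarm1 reached at most 14.4 CPM in any library, with log2 fold changes of -2.82, -4.00 and -3.03 over both. Of the other members, Traf1 ranked 155 among 15617 genes, Birc3 158, Tnfrsf1b 196, Adam17 410, Traf2 616 and Traf3 938. Tnfrsf1a ranked 4451, Tradd 8970 and Ripk1 10475. These profiles share their libraries and the genes were picked for likeness to Tnf in them, so the distances and fold changes are a description without a test.

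The surrounding pathway was described by 6 further lists, also chosen with earlier results of these data known. Their counts are read against the shares of all tested genes. These were 27.4% lower and 26.8% higher in experiment 1, 8.00% and 7.10% in experiment 2, and 3.26% and 3.59% over both. Of 15 enzymes that ubiquitinate, deubiquitinate or signal from the TNFR1 complex, 6 were lower and 4 higher in KO in experiment 1, 4 lower and none higher in experiment 2, and 1 lower and none higher over both (median log2 fold change -0.11). That gene was Tnfaip3, which encodes A20, the deubiquitinase that ends TNF signalling. Tnfaip3 had 134, 112, 343 and 422 CPM in WT 1 to 4 and 15.0, 17.8, 76.1 and 46.9 CPM in KO 5 to 8. All KO libraries lay below all WT libraries, and both genotypes were higher in experiment 2. Its log2 fold change over both was -2.77 (SE 0.19, adjusted p = 0.000931 by edgeR). Chuk, which encodes the kinase IKKα, had a log2 fold change of -0.24 (adjusted p = 0.0780), and it passed in experiment 1 alone (-0.35, adjusted p = 0.0011 by edgeR). Rnf31 and Rbck1 were called higher in KO in experiment 1 (log2 fold change 0.62 and 0.54) and lower in experiment 2 (-0.98 and -0.58). Of all tested genes, 5.92% were called in opposite directions in the experiments.

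Of 16 TRAF family members and TRAF-binding proteins, 4 were lower and 8 higher in experiment 1, 5 lower and 2 higher in experiment 2, and 2 lower and 3 higher over both (median log2 fold change 0.27, -0.31 and 0.02), where the share lower in experiment 1 was near the 27.4% of all tested genes. Those lower over both were Ikbke, a kinase of the IKK family, and Tank, a scaffold that binds TRAF proteins. Ikbke had 294, 268, 630 and 422 CPM in WT and 125, 111, 265 and 234 CPM in KO (log2 fold change -1.16, SE 0.15, adjusted p = 0.00789 by edgeR). Tank had 220, 206, 282 and 273 CPM in WT and 111, 111, 174 and 184 CPM in KO (-0.79, SE 0.09, adjusted p = 0.00691). Neither gene had a KO library that reached a WT library. The 3 higher genes were MAP kinase kinase kinases. Map3k14, or NIK, the kinase that TRAF3 holds at a low protein level, had 15.4, 16.3, 9.87 and 11.1 CPM in WT and 25.5, 27.2, 17.7 and 21.3 CPM in KO (0.81, SE 0.10, adjusted p = 0.00737 by edgeR). Its KO libraries all lay above its WT libraries. Map3k1 rose by 0.72 (SE 0.09, adjusted p = 0.00751) and Map3k5, or ASK1, by 0.39 (SE 0.08, adjusted p = 0.0341) on the log2 scale. Map3k5 kept its call in 1 of 8 fits without a library, the one without KO 8 (adjusted p 0.0406 to 0.113 over the 8, by edgeR). Traf6 and Trafd1 were called higher in KO in experiment 1 (log2 fold change 0.64 and 0.99) and lower in experiment 2 (-0.80 and -1.73).

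Of 9 genes of the death arm, 3 were lower and 1 higher in experiment 1. In experiment 2, 3 were lower, and over both 1 was lower (median log2 fold change over both -0.03). Among all tested genes 27.4% were lower in experiment 1 and 8.00% in experiment 2. Bid was called higher in experiment 1 (log2 fold change 0.58) and lower in experiment 2 (-0.49). Cflar, which encodes c-FLIP, the inhibitor of caspase 8, had 399, 367, 880 and 883 CPM in WT and 198, 202, 323 and 278 CPM in KO. Its KO libraries all lay below its WT libraries. The log2 fold change was -1.24 (SE 0.15, adjusted p = 0.00737 by edgeR) over both, and it was larger in experiment 2 (-1.55) than in experiment 1 (-0.95), with a difference of -0.62 (adjusted p = 0.0119). The call in experiment 2 was lost without KO 8 (adjusted p = 0.0503), and that of the difference without WT 2 or KO 6 (adjusted p up to 0.0596). Mlkl, the effector of necroptosis, had -0.78 over both (adjusted p = 0.0843), with -0.32 (adjusted p = 0.0149) in experiment 1 and -1.26 (adjusted p = 0.0188) in experiment 2, calls that were lost without WT 2 or KO 5 (adjusted p up to 0.107) and without KO 7 or KO 8 (adjusted p up to 0.11).

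Among 10 genes that process or deliver ADAM17 or shed TNF receptors, 4 were lower and 3 higher in experiment 1, and 1 was lower and 2 higher in experiment 2 and over both (median log2 fold change 0.00, 0.23 and 0.30), beside 27.4% lower and 26.8% higher among all tested genes in experiment 1 and 3.26% and 3.59% over both. Rhbdf2 encodes iRhom2, which escorts ADAM17 to the cell surface in macrophages, and had 68.7, 67.1, 110 and 90.8 CPM in WT and 39.9, 41.6, 58.0 and 56.8 CPM in KO. Like Adam17, it had no KO library at the level of a WT library, and its log2 fold change over both was -0.77 (SE 0.08, adjusted p = 0.00483 by edgeR). Furin, which removes the prodomain of ADAM17, was higher over both (0.56, SE 0.13, adjusted p = 0.0487), as was the sorting protein gene Pacs2 (0.43, SE 0.08, adjusted p = 0.0244). Furin passed in 1 of 8 fits without a library, the one without KO 8, and Pacs2 in 2, those without WT 3 and without KO 8 (adjusted p up to 0.155 and 0.0946 by edgeR). Tspan5 was called lower in KO in experiment 1 (log2 fold change -0.30) and higher in experiment 2 (0.87).

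Of 10 regulators of Tnf mRNA decay and translation, 3 were lower and 3 higher in experiment 1, 3 lower and 1 higher in experiment 2, and 2 lower and 1 higher over both (median log2 fold change -0.05, -0.29 and -0.08), where the counts in experiment 1 were near the 27.4% and 26.8% of all tested genes. Zfp36 encodes tristetraprolin, which binds AU-rich elements and speeds the decay of Tnf mRNA, and had 96.2, 104, 175 and 143 CPM in WT and 68.5, 65.4, 89.6 and 78.7 CPM in KO (log2 fold change -0.75, SE 0.11, adjusted p = 0.0139 by edgeR). Its relative Zfp36l2 went the other way, with 63.2, 66.3, 50.2 and 44.8 CPM in WT and 122, 128, 78.4 and 80.3 CPM in KO (0.84, SE 0.08, adjusted p = 0.00349). For both genes the genotypes did not overlap. Zc3h12a, which encodes the RNase regnase-1, had 49.6, 51.2, 62.9 and 56.6 CPM in WT and 14.0, 15.0, 34.2 and 37.5 CPM in KO (-1.27, SE 0.22, adjusted p = 0.0221 by edgeR), with a smaller decrease in experiment 2 (difference 1.06, adjusted p = 0.000886). The call of Zfp36 was lost without KO 7 (adjusted p = 0.0542), and that of Zc3h12a without WT 1, WT 2, KO 5, KO 6 or KO 7 (adjusted p up to 0.0756).

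Of the 5 lymphotoxin genes, receptors and neighbours of Tnf in the same cluster, 4 were tested and Lta was too low. In experiment 1, 2 were lower, and none passed in experiment 2 or over both, where the edgeR p was under 0.05 without adjustment for Lst1 (0.0234) and Nfkbil1 (0.041). Lst1, a gene next to the lymphotoxin genes, had 80.1, 92.9, 89.8 and 67.8 CPM in WT and 39.9, 38.5, 58.7 and 80.6 CPM in KO. The genotypes were apart in experiment 1 (log2 fold change -1.16, adjusted p = 1.3e-05 by edgeR) and overlapped in experiment 2 (-0.18, adjusted p = 0.602). Nfkbil1, at 9.08 to 12.5 CPM in WT and 8.51 to 9.33 CPM in KO, had -0.27 over both (adjusted p = 0.178).

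**Figure D4:**
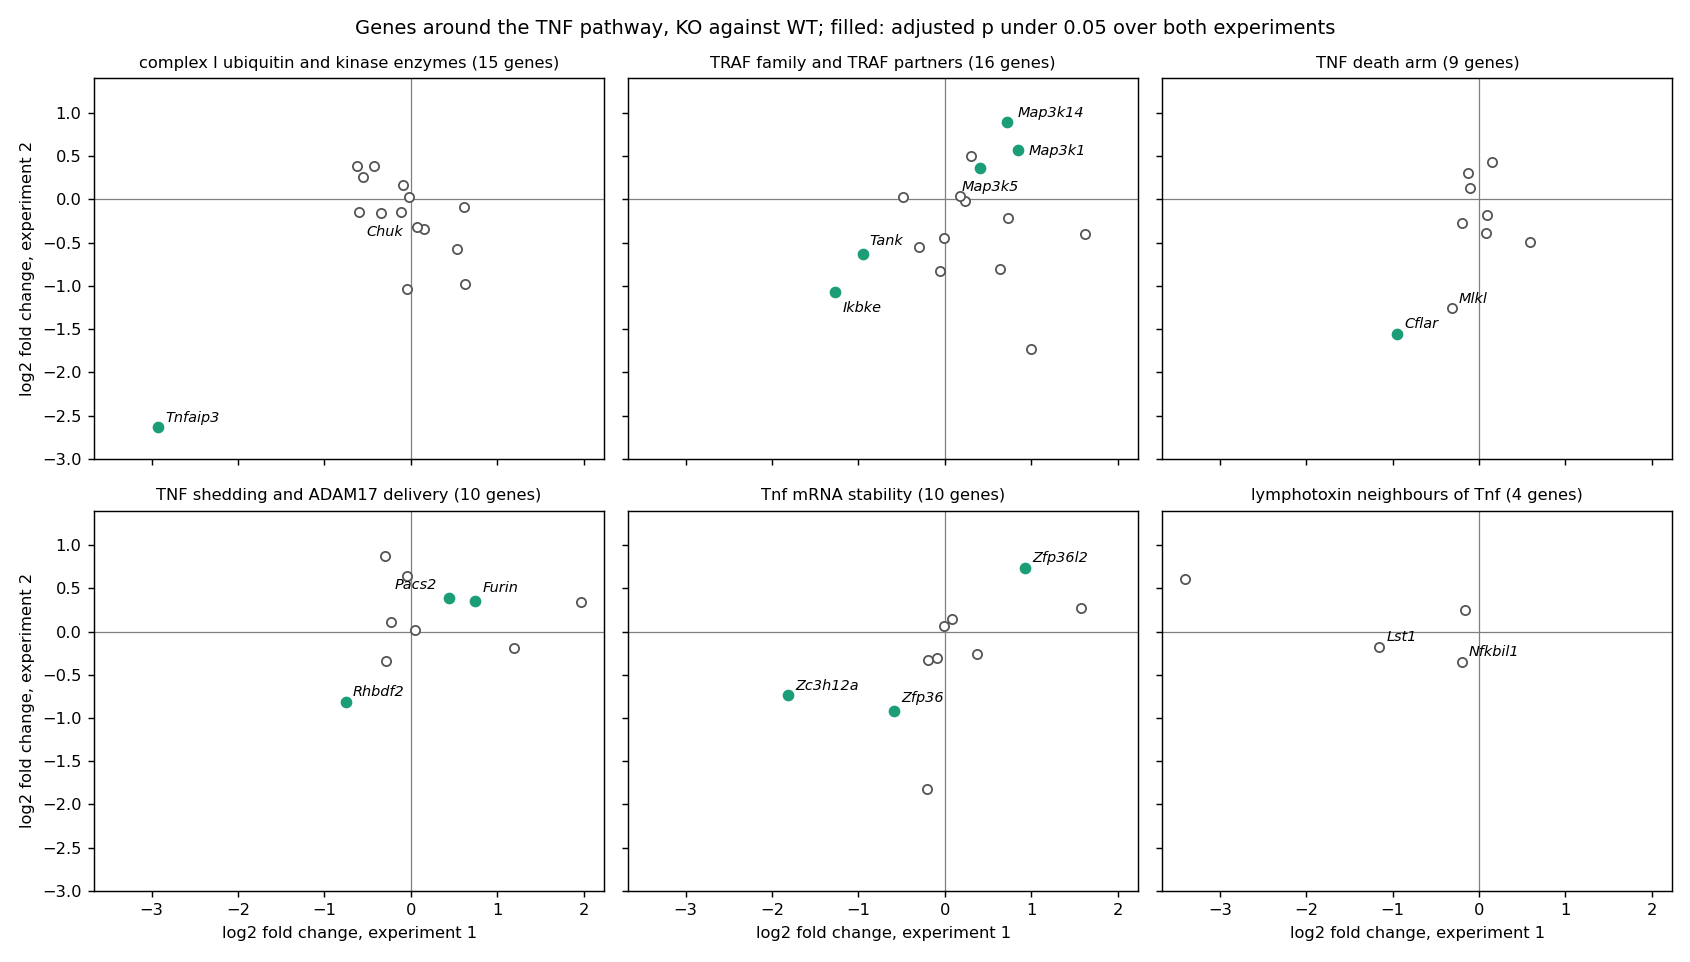
Log2 fold change of KO against WT in experiment 1 (horizontal axis) and experiment 2 (vertical axis) for the tested genes of the 6 lists, 1 point per gene, filled where the adjusted p over both experiments was under 0.05. Tnfaip3 lies apart at the lower left with -2.92 and -2.64, and the 3 MAP kinase kinase kinases lie at the upper right of their panel.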

How the data were processed

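RNA-seq libraries made with a stranded mRNA kit were processed by the authors; the submitters' processing notes name STAR 2.7.0f, Subread 1.6.4 with featureCounts, DESeq2 1.22.1 and GRCm38. The annotation and the strand setting are not given in the sources used here. The authors deposited raw counts per gene, 1 table for each experiment, which were joined by symbol. They also deposited counts divided by a factor set within each experiment (a signal), which were not used. Groups came from the labels. Some lymphocyte markers are not reported here.

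Counts were scaled by TMM and filtered with filterByExpr (edgeR 4.0.16, R 4.3.3), then fitted with robust quasi-likelihood within each experiment, over both with the experiment as a term, and with an interaction. P-values were adjusted over all tested genes (Benjamini-Hochberg, threshold 0.05). SE is the log2 fold change over the square root of F, and log2 CPM used a prior count of 2. Scripts were tested on simulated data. Exon lengths and positions came from GENCODE M21, promoters from RefSeq. Alternatives were DESeq2 1.42.0, limma-voom (limma 3.58.1), upper-quartile scaling, other filters and designs, and each library left out. The 10 genes and the lists were chosen with earlier results of these data known. Named genes were the members, Mkl1, in each list those past the threshold over both experiments and the 2 with the smallest p, and the 5 nearest to Tnf. Genes called in opposite directions in the experiments are mentioned beyond these, picked after their values were seen.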

Additional observations from a re-analysis of the deposited data

Results flagged for a closer look

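Among the 4 KO libraries, 1 library stood apart from the other 3 for 2 of the genes. For Traf1 it was KO 8, at 11.9 CPM against 25.4 to 26.5 CPM, with a gap of 0.93 of the whole range. For Traf2 it was KO 5, at 24.3 CPM against 26.1 to 26.2 CPM, with a gap of 0.938 of the range, although the range itself was narrow. Both gaps are past the 95% critical value of Dixon's test for 4 values, which chance alone exceeds in about 5% of such groups. Both genotypes were searched for Mkl1, the members, the named genes of the lists and the genes nearest to Tnf. Across so many groups a few such gaps are expected by chance alone, and these 2 were found. Each group of 4 held libraries of both experiments, while the test takes its values as 1 group.

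The effect of the KO differed between the experiments, by edgeR's interaction test, for Mkl1 and 5 of the 10 genes. The log2 fold change in experiment 2 minus that in experiment 1 was -0.77 for Mkl1, 0.864 for Tnfrsf1b, -3.27 for Traf1, -0.844 for Traf2, 0.616 for Ripk1 and -0.845 for Birc3. Traf1 was high in the WT libraries of experiment 2 alone, and Ripk1 had estimates of opposite sign, of which that in experiment 2 passed. Among the other named genes the difference was -0.615 for Cflar, -0.959 for Mlkl, 1.06 for Zc3h12a, 0.964 for Lst1 and 1.06 for Ptgs2, which was picked for its likeness to Tnf in these libraries. Some of these calls were lost when 1 library was left out: Mlkl without WT 1, KO 6, KO 7 or KO 8 (adjusted p up to 0.0644), Lst1 without WT 2, KO 5 or KO 6 (up to 0.0746), and Ptgs2 in 6 of 8 such fits, all but those without WT 2 and KO 8 (up to 0.163). Of all tested genes, 39.8% passed the same test. KO 5 and KO 6 held 176 and 232 CPM of fibroblast marker transcripts, and the part of these in the differences was not tested.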

How the results depend on the processing

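For the 10 genes, 430 of 480 values under an alternative kept their direction and their side of the threshold, 27 lost a call, 10 gained one and 13 changed sign. In no alternative did a called value of a member change sign.

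Over both experiments, DESeq2 called 2557 genes in all, the mean of the effects of both experiments 4962 and the fit without the experiment term 4 (3247 at an unadjusted p under 0.05), against 1070. Members called were 5, 7 with DESeq2, 8 with the mean of both effects and 0 without the experiment term, where Tnf had an adjusted p of 0.163. In experiment 2 the fit of all 8 libraries called 4955 genes against 2358. Mkl1 in experiment 1 had -0.40 (adjusted p = 0.0669) in that fit. Over both, Mkl1 passed with DESeq2 (-0.79, adjusted p = 0.00253), with no filter beyond 1 count (-0.79, adjusted p = 0.0379) and as the mean of both effects (-0.79, adjusted p = 0.00198). With upper-quartile scaling Tradd in experiment 2 was 2.4e-05 and the difference of Tnfrsf1a between experiments -0.058, and with at least 10 counts in each library the latter was -0.0047.

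Without 1 library, experiment 2 gave 293 (without KO 8) to 1166 genes (without WT 4) and 3 to 5 members, and both experiments 231 (without WT 1) to 1128 genes (without KO 8). Mkl1 in experiment 2 was -1.43 to -0.95 and its difference between experiments -1.03 to -0.55. Changes of sign without 1 library touched values that had not passed: Traf1 in experiment 1 (-0.71 to 0.020), Tradd (-0.11 to 0.033) and Lst1 (-0.42 to 0.038) in experiment 2, and the differences between experiments of Tnf (-0.042 to 0.36), Tnfrsf1a (-0.088 to 0.097), Adam17 (-0.23 to 0.071), Tnfaip3 (-0.12 to 0.58), Ikbke (-0.084 to 0.50), Map3k5 (-0.14 to 0.037), Rhbdf2 (-0.21 to 0.074), Pacs2 (-0.18 to 0.046), Mefv (-0.015 to 1.01) and Tarm1 (-0.11 to 1.07). A lone library left in a genotype was assumed to vary like the others.

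Precision rests on 2 libraries per genotype and experiment, each with at least 33977799 counts. No paired analysis was possible because the labels give WT and KO no shared replicate numbers.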
